A study of Mus musculus with 16 samples.

Results

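The genes described here encode the respiratory chain and the ATP synthase, together with the other transcripts of the mitochondrial genome. They were found by symbol (Nduf, Sdha to Sdhd, Uqcr, Cox4 to Cox8, Atp5 and the mt- prefix), which gave 91 nuclear and 31 mitochondrially encoded genes of the 14504 in the deposited table. Of the nuclear genes, 81 encode subunits (36 of complex I, 4 of complex II, 8 of complex III, 16 of complex IV and 17 of complex V), 8 encode assembly factors (the Ndufaf genes) and 2 have symbols ending in -ps and were kept apart. Of these, Atp5l2-ps is annotated as a processed pseudogene. Ndufb1-ps is annotated as a noncoding RNA of a bidirectional promoter, had reads in every library and is not among the 36 of complex I. The mitochondrial genome gave 13 mRNAs, 2 rRNAs and 16 tRNAs. RNA was measured in 16 libraries of DRN (dorsal raphe nucleus), where most serotonin neurons of the midbrain lie, from adult male C57BL/6 mice. Stressed mice lived through 30 days of chronic social defeat and were sorted by their behaviour into a passive coping (PS) and an active coping (AS) phenotype, and unstressed mice were the controls. Tissue was taken 6 h after an injection of dexamethasone (DEX, a glucocorticoid receptor agonist) at 2 mg/kg or of saline. The groups held 3 control saline, 3 control DEX, 2 PS saline, 3 PS DEX, 3 AS saline and 2 AS DEX libraries. A library is named below by its group and the number in its label, so that con_sal_114 is a control mouse given saline and AS_dex_38 an AS mouse given DEX.

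Complexes I to IV pass electrons from NADH and succinate to oxygen and, except for complex II, pump protons across the inner mitochondrial membrane. Complex V uses the proton gradient to make ATP. The small mitochondrial genome encodes the hydrophobic core subunits of complexes I, III, IV and V and the rRNAs and tRNAs that translate them, whereas the other subunits, including all of complex II, are encoded in the nucleus and imported, so that both genomes have to supply each of the mixed complexes. Neurons depend on this machinery for most of their ATP.

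The tissue was a punch, so fewer cells of a type and less RNA per cell cannot be told apart. The phenotype was assigned by clustering the behaviour of stressed mice. Per the study's methods, DRN samples of DEX-treated PS and AS mice with low Tph2 were removed. Those methods list more DRN samples than the 16 libraries used here, and that filter does not account for the sizes of the control and saline groups. Groups were compared with limma on log2(normalized count + 1) in 1 fit over all 16 libraries and 14504 genes, and "called" means an adjusted p of less than 0.1. Reads in the listed genes ranged from 38207157 to 62447298 per library. Fkbp5, a classical glucocorticoid receptor target, rose after DEX 4.57-fold in controls, 4.15-fold in PS and 4.61-fold in AS mice, with limma adjusted p = 3.72e-08, 4.02e-07 and 1.56e-07. All 8 serotonin neuron markers were listed and none was at 0, and their summed normalized count ran from 299037 in AS_dex_42 to 453931 in AS_sal_40.

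Expression is given below as the deposited normalized count, which is the read count divided by 1 size factor per library, and levels of different genes are compared only per kilobase of exon. The nuclear subunits had median levels of 2165 normalized counts per kb in complex I, 2714 in complex II, 3796 in complex III, 3873 in complex IV and 2020.1 in complex V. The lowest subunit was Cox4i2, the lung-type isoform of complex IV subunit 4, at 47.7 normalized counts per kb, and Cox8a, the small complex IV subunit of most tissues, was the highest at 13405. Besides Cox4i2, Cox6b2 and Ndufa4l2 stayed under 100 normalized counts per kb. All 81 nuclear subunits had at least 10 reads in every library. Among the mitochondrial mRNAs, mt-Co1, the catalytic subunit of complex IV, reached 287261 normalized counts per kb, mt-Cytb, the cytochrome b of complex III, 187629 and mt-Nd1, a core membrane subunit of complex I, 158699.

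The levels of 6 of the 13 mitochondrial mRNAs are uncertain, because a copy of part of the mitochondrial genome lies on chromosome 1 and shares its reads. mt-Co2, mt-Atp8, mt-Atp6, mt-Co3, mt-Nd3 and mt-Nd4l, which lie wholly in the copied stretch, had mean normalized counts of only 26.8 (mt-Atp8) to 2279.6 (mt-Co2), whereas the other 7 ranged from 3123 (mt-Nd6) to 443819 (mt-Co1). This split was chosen after the values were seen. The annotated copies Gm10222 (of mt-Nd4l), Gm10925 (of mt-Atp6), Gm28437 (of mt-Co3) and Gm28661 (of mt-Co2) were identical to the mitochondrial gene over their whole length, and Gm28438 differed from mt-Nd3 at 1 of 345 bases. The copy also takes in parts of mt-Co1 (Gm29216, identical at 482 of 483 aligned bases) and of mt-Nd4 (Gm28439, identical over 876 of the 1378 bases of the gene), whose mean normalized counts of 443819 and 94338 were high. Gm10925 had a mean normalized count of 1030.0, close to the 1052 of mt-Atp6. mt-Nd4l, a small membrane subunit of complex I, is shown as the shortest example of such a gene. Its 294 bases below (GRCm38, chrM:9877-10170, plus strand) are letter for letter those of Gm10222 (chr1:24612407-24612700, minus strand), so that no read lying within them could be placed on 1 of these genes alone.
mt-Nd4l: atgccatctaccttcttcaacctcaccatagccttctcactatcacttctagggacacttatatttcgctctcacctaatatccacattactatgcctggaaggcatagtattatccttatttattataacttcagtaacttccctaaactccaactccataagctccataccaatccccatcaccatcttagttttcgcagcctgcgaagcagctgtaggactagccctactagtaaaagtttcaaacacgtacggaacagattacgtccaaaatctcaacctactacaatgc

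Promoters of the nuclear members are shown for 2 genes to which results below return, with the letters that nuclear respiratory factor 1 (NRF1), a transcription factor known for binding respiratory genes, is known to prefer. RefSeq (GRCm38.p6) gave a promoter, from 250 bases before to 50 after the start, for 67 of the 81 nuclear subunit genes. The letters GCGCATGCG, searched on both strands, stood in 8 of the 67 genes (11.9%), namely Ndufa11, Ndufa8, Uqcr11, Uqcrc1, Cox6a1, Atp5g2, Atp5k and Atp5l, against 4.04% of the 9903 genes with a promoter. By complex they stood in 2 of 32 genes of complex I, 0 of 3 of complex II, 2 of 5 of complex III, 1 of 12 of complex IV and 3 of 15 of complex V. The ETS-type letters CCGGAAG stood in 17 of the 67 genes (25.4%) against 19.4%, and the YY1-type letters AAGATGGCG in 7 (10.4%) against 3.54%. These letters were chosen after expression values were known, and a match describes only the sequence. In the promoters of Uqcrc1, which encodes a core protein of complex III (chr9:108936398-108936697, plus strand), and of Cox6a1, which encodes the isoform of complex IV subunit 6a found in most tissues (chr5:115348909-115349208, minus strand), the capitals mark the NRF1-type letters.
Uqcrc1: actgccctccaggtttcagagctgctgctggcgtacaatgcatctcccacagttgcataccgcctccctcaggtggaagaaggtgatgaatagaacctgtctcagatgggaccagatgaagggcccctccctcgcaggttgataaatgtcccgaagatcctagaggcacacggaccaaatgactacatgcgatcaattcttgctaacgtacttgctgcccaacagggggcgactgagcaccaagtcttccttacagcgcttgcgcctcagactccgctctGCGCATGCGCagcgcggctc
Cox6a1: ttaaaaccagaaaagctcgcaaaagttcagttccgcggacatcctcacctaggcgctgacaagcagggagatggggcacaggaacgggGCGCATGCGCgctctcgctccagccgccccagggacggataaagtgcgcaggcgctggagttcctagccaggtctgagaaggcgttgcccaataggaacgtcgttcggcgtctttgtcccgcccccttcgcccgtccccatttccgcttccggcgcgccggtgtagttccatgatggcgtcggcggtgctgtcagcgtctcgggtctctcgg

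Before the groups were compared, each library was described by the median log2 deviation of a gene set from its mean over the 16 libraries. For the 81 nuclear subunits the scores were -0.03, 0.24 and 0.27 in con_sal_102, con_sal_104 and con_sal_114, -0.08, 0.22 and -0.19 in con_dex_101, con_dex_116 and con_dex_122 and -0.16 and -0.07 in PS_sal_62 and PS_sal_68. They were -0.18, -0.01 and -0.27 in PS_dex_6, PS_dex_34 and PS_dex_64, -0.08, -0.03 and 0.69 in AS_sal_8, AS_sal_14 and AS_sal_40 and -0.10 and -0.16 in AS_dex_38 and AS_dex_42. AS_sal_40 thus stood far above the other 15 libraries, and 68 of the 81 nuclear subunits had their highest value in it. con_sal_104, con_sal_114 and con_dex_116 came next, and PS_dex_64 held the lowest value of 40 subunits. All complexes took part, since in AS_sal_40 the score was 0.68 for complex I, 0.41 for complex II, 0.73 for complex III, 0.70 for complex IV and 0.70 for complex V. Sdha, the flavoprotein of complex II, was the only nuclear subunit under its mean there, with 23353 normalized counts in AS_sal_40 against 26088 and 26571 in the other AS saline libraries. The 119 cytosolic and 77 mitochondrial ribosomal protein genes scored 0.80 and 0.57 in the same library and were high there too.

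**Figure D1:**
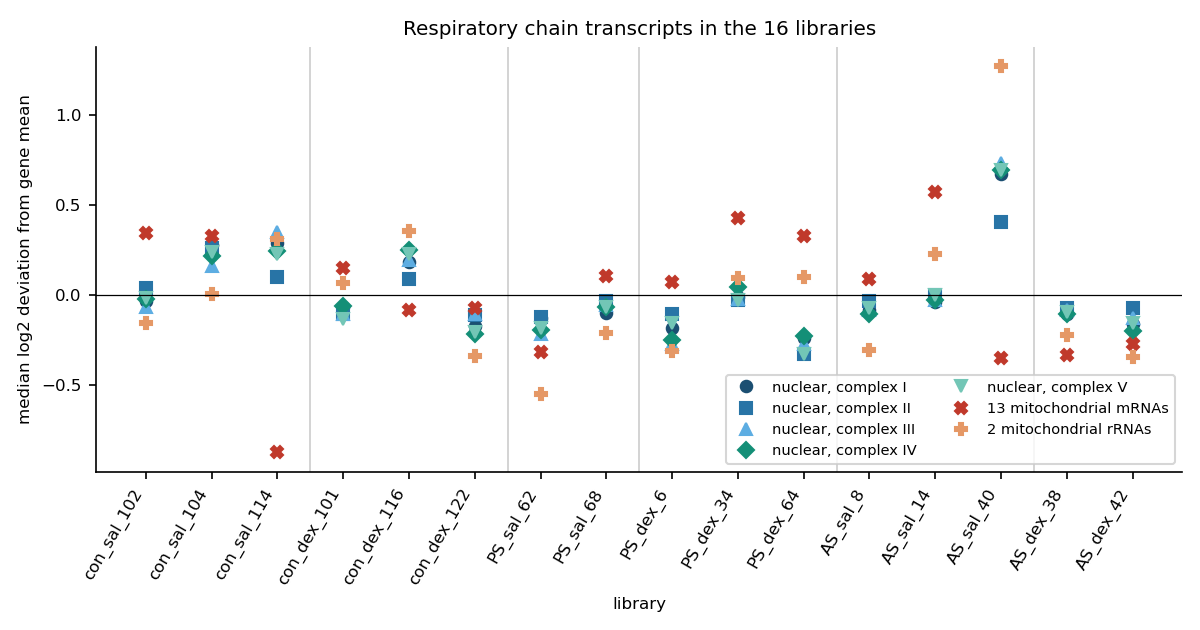
Median log2 deviation from the mean of the 16 libraries (vertical axis) for the nuclear subunits of complexes I to V, the 13 mitochondrial mRNAs and the 2 mitochondrial rRNAs, with 1 point per library and the libraries grouped by phenotype and treatment. AS_sal_40 stands above all others for the nuclear complexes and the rRNAs, and con_sal_114 lies lowest for the mitochondrial mRNAs.

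The 13 mitochondrial mRNAs did not follow the nuclear subunits from library to library. Their scores were 0.34, 0.33 and -0.88 in control saline, 0.15, -0.08 and -0.07 in control DEX and -0.31 and 0.10 in PS saline, in the library order given above. They were 0.07, 0.43 and 0.33 in PS DEX, 0.09, 0.57 and -0.35 in AS saline and -0.33 and -0.27 in AS DEX. con_sal_114 and AS_sal_40, which had high nuclear scores, had low mitochondrial ones. As a share of the reads in listed genes, the nuclear subunits took the least in PS_dex_64 (0.839%) and the most in AS_sal_40, and the mitochondrial mRNAs from 1.27% in con_sal_114 to 3.36% in PS_dex_64. The ratio of mitochondrial mRNA reads to nuclear subunit reads therefore ranged from 1.04 in con_sal_114 to 4.01 in PS_dex_64, and the other 2 control saline libraries had 2.97 and 2.56.

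Within the mitochondrial genome, 3 libraries also differed from the other 13 in the ratios between transcripts. mt-Nd5, a large core subunit of complex I had 184548, 210772 and 25575 normalized counts in con_sal_102, con_sal_104 and con_sal_114. con_sal_114 fell far below the others, and the ratio of mt-Nd5 to mt-Co1 in it was 0.0766, against 0.130 in AS_sal_40, 0.208 in con_dex_116 and 0.353 to 0.510 in the other 13. The ratio of mt-Nd2 to mt-Nd1, which encode neighbouring core subunits of complex I, was 0.282, 0.298 and 0.458 in these 3 libraries and 0.586 to 0.708 in the others. mt-Co1 itself deviated from its mean over the libraries by only -0.39, 0.07 and -0.08 on the log2 scale in them, while mt-Nd5 deviated by -2.50, -1.27 and -0.75. The large rRNA mt-Rnr2 moved the other way, with a ratio to mt-Co1 of 0.473, 0.675 and 0.411 against 0.221 to 0.301. The 3 libraries belong to 3 groups, and the cause was not tested. Several medians and counts that rest on con_sal_114 or AS_sal_40 are also given without them. The medians by complex, and the values of most single genes and gene lists, are given with all libraries only.

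**Figure D2:**
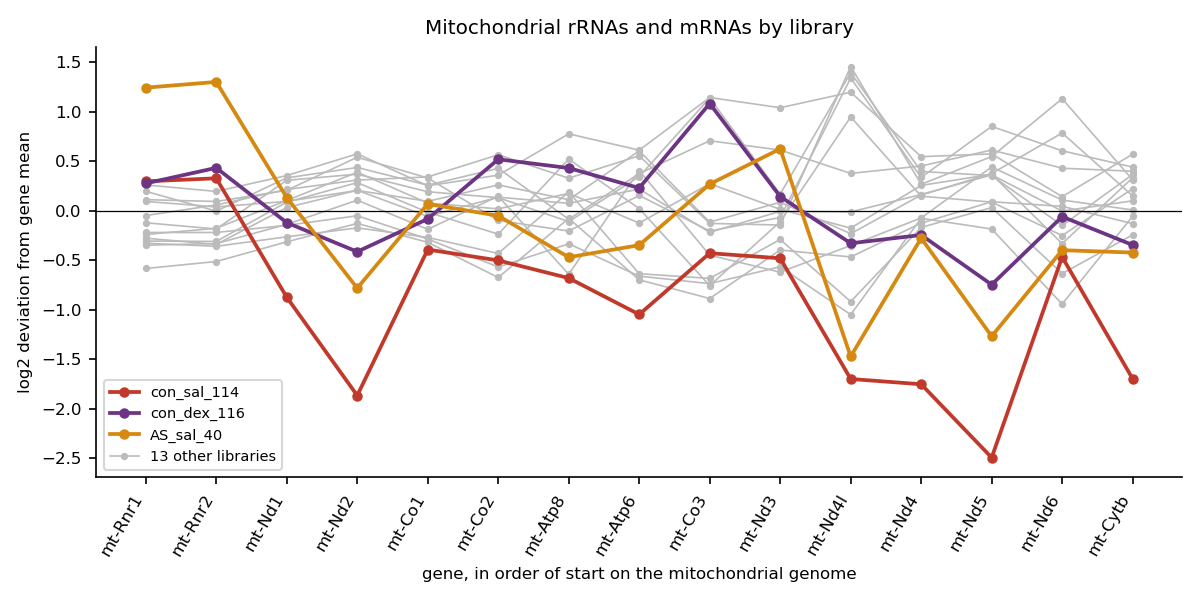
Log2 deviation of each of 15 mitochondrial genes from its mean over the 16 libraries (vertical axis), with genes in genome order and 1 line per library. con_sal_114, con_dex_116 and AS_sal_40 are coloured, and in them mt-Nd2 and mt-Nd5 lie low while the rRNAs lie high. The other 13 libraries are grey.

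The first question was how the genes responded to DEX in unstressed mice. After DEX, no member passed the test in controls, against 1.26% of all genes (183 genes at a limma adjusted p under 0.1), although 78 of the 81 nuclear subunits had a lower mean. The median log2 difference was -0.19 over the nuclear subunits and 0.12 over the 13 mitochondrial mRNAs, of which 10 were higher, against 0.00 over all genes. The nuclear medians were -0.20, -0.18, -0.18, -0.18 and -0.16 for complexes I to V. The smallest p belonged to Atp5d, the delta subunit in the central stalk of the ATP synthase, which had 7138, 8869 and 6696 normalized counts in the saline and 5686, 6945 and 5703 in the DEX libraries. con_dex_116 reached into the saline range, and the difference was -0.30 (SE 0.13, limma adjusted p = 0.375). Sdhc, a membrane anchor of complex II, had 3934, 4189.8 and 3647 in saline and 3262, 3584 and 3112 in DEX mice. Its groups did not overlap, and it differed by -0.24 (SE 0.11, limma adjusted p = 0.415). The other non-overlapping members with the greatest differences were Ndufb8, an accessory subunit of complex I, at -0.28, the assembly factor Ndufaf8 at -0.27, Uqcrc1 at -0.26 and Ndufv1, the subunit that binds NADH, at -0.25. In all, 6 nuclear subunits had every DEX value under every saline value (7.41%), close to the 7.43% of all genes that did so.

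Few members had small p-values. At an unadjusted limma p under 0.05, 1 of the 81 nuclear subunits and 0 mitochondrial mRNAs differed in controls, the subunit being lower, against 4.78% of all genes that were lower at that p. edgeR and DESeq2 on the recovered reads gave 1 and 3 nuclear subunits at that level and called none, and the share of all genes by these tools is not given. The nuclear median ranged from -0.30 without con_dex_116 to -0.11 without con_dex_122, and was -0.09 once the trend of each library with transcript length was removed. Without con_sal_114 and AS_sal_40 together, limma called Atp5d, Atp5g2 and mt-Nd4l in controls, against 5.03% of all genes. con_dex_116, whose mitochondrial transcript ratios also stood apart, was kept, so only the saline side of this comparison was changed. The mitochondrial median turned from 0.12 to -0.33 without con_sal_114, and 6 of the 13 mRNAs then had all DEX values under both saline values, against 16.2% of all genes. mt-Co1 had 500363, 555109 and 333673 normalized counts in saline and 467775, 413591 and 384594 in DEX mice. Here the 3 DEX values lay between con_sal_114 and the other 2 saline libraries.

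In PS mice the respiratory genes differed little between DEX and saline. No member was called, against 0.703% of all genes, and the nuclear median was -0.02, with 30 subunits higher and 51 lower. The mitochondrial mRNAs lay higher after DEX in 12 of 13 cases, with a median of 0.37 that was 0.10 without PS_sal_62 and 0.52 without PS_sal_68, and by complex the nuclear medians were between -0.04 (complex V) and -0.01 (complex IV). mt-Atp6, the proton channel subunit of the ATP synthase, had 612 and 910.4 normalized counts in PS saline and 1156, 1288 and 1105 in PS DEX libraries. All 3 DEX values lay above both saline values, and the difference was 0.66 (SE 0.38, limma adjusted p = 1), for a gene whose reads are shared with its nuclear copy. mt-Nd4l also did not overlap, at 0.89. Among nuclear members without overlap, Ndufc2, an accessory subunit of complex I, was at 0.21, Atp5g1, which encodes the c subunit of the ATP synthase ring, at -0.17 and the assembly factor Ndufaf7 at 0.16. Of the 81 nuclear subunits 3 lay wholly higher and 2 wholly lower, against 11.2% and 10.1% of all genes, and none of the 81 nor of the 13 mRNAs had an unadjusted p under 0.05 by limma, edgeR or DESeq2, a level that 4.69% of all genes reached by limma.

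In AS mice both genomes had lower values after DEX, but again no member was called, against 0.689% of all genes (100 genes). The nuclear median was -0.34, with 80 of 81 subunits lower, and the mitochondrial mRNA median -0.40, with 12 of 13 lower. Complex medians were -0.32, -0.20, -0.34, -0.37 and -0.39 for complexes I to V. mt-Nd3, a core membrane subunit of complex I, had 323, 719 and 539 normalized counts in AS saline and 235 and 285 in AS DEX libraries. The groups did not overlap, and the log2 difference was -0.95 (SE 0.34, limma adjusted p = 0.399). mt-Atp6 had 1008, 1518 and 779.8 in saline and 627 and 638 in DEX mice, again without overlap, and differed by -0.74 (SE 0.38, limma adjusted p = 0.542). The proline tRNA mt-Tp (-0.88, limma adjusted p = 0.386) and mt-Nd6, the complex I subunit on the other strand (-0.62, limma adjusted p = 0.567), also did not overlap. mt-Nd4l at -1.21 and mt-Co3 at -0.93 differed more than mt-Atp6 but had overlapping groups. mt-Nd6 overlaps mt-Nd5, and whether counting used the strand is not given in the sources used here.

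Among nuclear genes in AS mice, Cox7b, a small subunit of complex IV, had 3823, 4212 and 8826 normalized counts in saline and 3695 and 3444 in DEX libraries. The groups did not overlap, with AS_sal_40 far above the rest. The difference was -0.55 (SE 0.35, limma adjusted p = 0.572), and -0.17 without AS_sal_40. Atp5a1 and Atp5b, the alpha and beta subunits that form the catalytic head of the ATP synthase, were at -0.18 and -0.24, and Cox4i1, the common form of complex IV subunit 4, at -0.44. Without AS_sal_40 the nuclear median moved from -0.34 to -0.07, whereas that of the mitochondrial mRNAs stayed between -0.59 and -0.32 whichever library was left out. With all libraries, 28 nuclear subunits (34.6%) and 6 mitochondrial mRNAs (46.2%) had both DEX values under all saline values, against 14.8% of all genes. Without AS_sal_40 the counts were 29 of 81 and 12 of 13, against 20.4% of all genes. At an unadjusted p under 0.05, limma found 2 nuclear subunits and 1 mitochondrial mRNA, edgeR 8 and 2 and DESeq2 14 and 3, and none was called by any of them. All of the limma ones were lower, as were 4.16% of all genes at that p, and edgeR and DESeq2 placed 9.42% and 10.7% of all genes, in either direction, under it. With libraries weighted by their variability limma called 6 mitochondrial mRNAs, namely mt-Atp6, mt-Co2, mt-Co3, mt-Nd3, mt-Nd4l and mt-Nd6, against 9.67% of all genes under these weights. All of the 6 but mt-Nd6 have a copy on chromosome 1. Without con_sal_114 and AS_sal_40 together it called mt-Nd4l, against 0.503% of all genes.

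The summed normalized counts of cell type markers moved with this comparison. AS saline and AS DEX libraries did not overlap for 4 of 10 marker lists, each lower after DEX, which were neuron markers (9 listed, 282147 to 301673 in saline against 269702 to 272079.6 in DEX), astrocyte markers (8 listed, 135195 to 156761 against 129199 to 134964), endothelial markers (6 of 7 listed, 7381 to 7673 against 6576 to 6889.9) and mural cell markers (7 listed, 7525 to 9541 against 6152 to 6451). The sums of the other lists overlapped, and 14.8% of all genes were wholly lower in this comparison. The sum of the 8 microglia markers ran from 9170.4 to 13812 in saline and 8391 to 9196 in DEX, that of the 4 blood markers listed of 5 from 681 to 2185 and 802 to 855, and that of the 8 serotonin neuron markers from 317257 to 453931 and 299037 to 324017. AS_sal_40 had the highest sum of all 16 libraries for the astrocyte, microglia, mural cell, blood and serotonin neuron lists, and in these 7 lists no marker was at 0. The median log2 deviation of each list divided them otherwise. By it the astrocyte markers overlapped (-0.03 to 0.41 in AS saline against -0.09 to 0.04 in AS DEX). The oligodendrocyte markers (0.01 to 0.29 against -0.17 to -0.14) and the serotonin neuron markers (-0.122 to 0.231 against -0.252 to -0.127) did not overlap. The oligodendrocyte gene Opalin and the microglial receptor gene Cx3cr1 fell after DEX in all 3 phenotypes. Their part in the values of the respiratory genes was not tested.

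**Figure D3:**
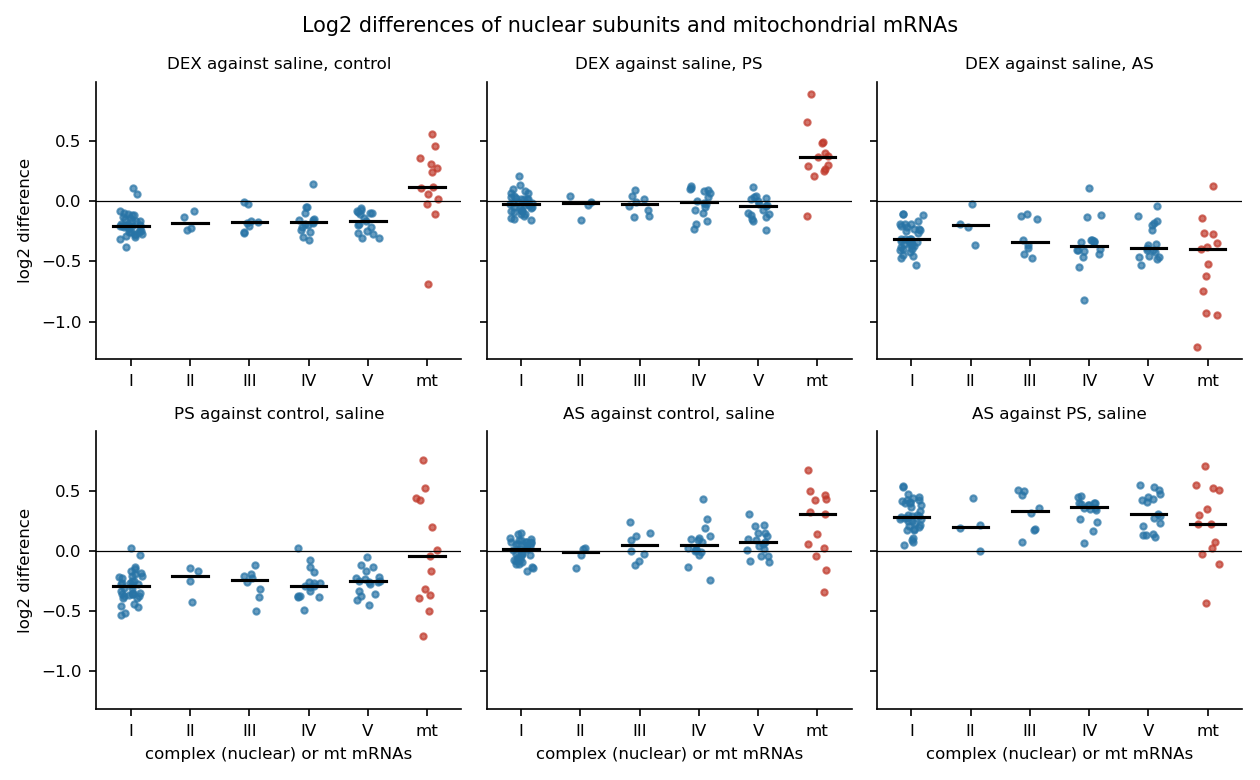
Log2 difference of each nuclear subunit by complex and of each mitochondrial mRNA (vertical axis, 1 point per gene, black line at the median) in the 3 DEX and the 3 saline comparisons. The nuclear points lie mostly under 0 after DEX in control and AS mice and in PS against control saline mice, and the mitochondrial mRNAs scatter more widely than the nuclear subunits.

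Averaged over the 3 phenotypes, all 81 nuclear subunits were lower after DEX, with a median of -0.18 on the log2 scale, but none was called, against 4.31% of all genes (625 genes). The mitochondrial mRNAs had a median of -0.01, with 6 higher and 7 lower. The nuclear median was -0.088 without AS_sal_40 and -0.22 without AS_sal_8, and the mitochondrial one ran from -0.14 without con_sal_114 to 0.15 without con_sal_104. Other settings called 1 member each here, namely Atp5d with library weights (9.16% of all genes), mt-Nd4l without con_sal_114 and AS_sal_40 together (5.46%) and the tyrosine tRNA mt-Ty without PS_sal_62 (3.37%). mt-Ty lay near the floor, with a mean of 11.0 normalized counts and under 10 reads in 7 libraries. Complex I was at -0.18, complex II at -0.16, complex III at -0.16, complex IV at -0.18 and complex V at -0.18, so the complexes hardly differed. Sdhc had the smallest p among the nuclear subunits, at -0.20 (SE 0.07, limma adjusted p = 0.187). Over the groups its mean normalized count was 3924 ± 272 (SD, n = 3) in control saline and 3319 ± 241 (n = 3) in control DEX mice. It was 3496 ± 245 (n = 2) and 3145 ± 399 (n = 3) in PS saline and PS DEX, and 4009 ± 529 (n = 3) and 3438 ± 23.5 (n = 2) in AS saline and AS DEX mice. The DEX mean was thus the lower in each phenotype. Ndufb10, an accessory subunit of complex I (-0.31 (SE 0.14, limma adjusted p = 0.333)), Cox5a, a complex IV subunit (-0.22 (SE 0.09, limma adjusted p = 0.306)), and Atp5d (-0.19 (SE 0.08, limma adjusted p = 0.307)) followed. At an unadjusted p under 0.05, limma, edgeR and DESeq2 found 5, 6 and 12 nuclear subunits and 0 mitochondrial mRNAs each. The 5 were lower, as were 6.25% of all genes at that limma p. The shares of all genes by edgeR and DESeq2 are not printed here, so their counts are not read against all genes. The 119 cytosolic ribosomal protein genes had a median of -0.17 and the 77 mitochondrial ones of -0.12, close to the nuclear subunits.

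The second question was whether the coping phenotypes differed under saline. In PS saline mice 79 of the 81 nuclear subunits lay lower than in control saline mice, with a median of -0.27, and no gene of the table was called in this comparison (0.0%). Medians were -0.29, -0.21, -0.24, -0.29 and -0.25 for complexes I to V, and -0.04 for the mitochondrial mRNAs. Ndufb10 (chr17:24722060-24724478, minus strand, GRCm38) had 5906, 8431 and 8336 normalized counts in control saline and 5135 and 5205 in PS saline libraries. con_sal_102 stood nearest to the PS values, the groups did not overlap, and the log2 difference was -0.53 (SE 0.25, limma adjusted p = 0.571). Cox6a1, whose promoter is shown above (chr5:115345642-115348981, minus strand), had 5786, 7349 and 6122 in control and 4408 and 4678 in PS mice. It did not overlap either and had the smallest p among the nuclear subunits, with -0.49 (SE 0.20, limma adjusted p = 0.571). The complex I subunits Ndufa12 (-0.51 (SE 0.22, limma adjusted p = 0.571)) and Ndufb4 (-0.46 (SE 0.30, limma adjusted p = 0.578)) and the small complex III subunit Uqcrq (-0.49 (SE 0.25, limma adjusted p = 0.571)) were of like size.

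In all, 48 of the 81 nuclear subunits (59.3%) had both PS saline values under all 3 control saline values, against 14.2% of all genes, and the number was 55 without con_sal_114 (21.8% of all genes), 50 without con_sal_104 (17.8%) and 66 without con_sal_102 (25.4%). No mitochondrial mRNA was so placed. The subunits share libraries, so these counts are not independent tests, and at an unadjusted p under 0.05 limma found 5, edgeR 4 and DESeq2 8 nuclear subunits. The 5 were lower, as were 3.01% of all genes at that limma p. The edgeR and DESeq2 counts are printed without such a share and are not read against all genes. The median ranged from -0.37 without con_sal_102 to -0.22 without con_sal_104, and was -0.16 after removal of the trend with transcript length. Ribosomal protein genes lay lower too, with medians of -0.40 (cytosolic) and -0.26 (mitochondrial). Without con_sal_114 the median of the 13 mitochondrial mRNAs was -0.37, with 6 of 13 placed wholly lower. Of the marker lists, blood (645 to 684 in PS against 989 to 2034 in control saline) and microglia (8749.6 to 9192 against 9379 to 10176) were lower in PS mice without overlap, and their part in the nuclear values was not tested.

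AS saline mice did not show the lower nuclear values. The nuclear median against control saline was 0.03, with 52 subunits higher and 29 lower, that of the mitochondrial mRNAs was 0.31, and no gene was called (0.0%). Both medians rested on 1 library each. Without AS_sal_40 the nuclear median was -0.23 and 31 nuclear subunits had both AS values under all control values, against 10.2% of all genes, while with it there was none, against 2.11% of all genes. Without con_sal_114 the mitochondrial median was -0.29. Cox4i1 had 17212, 17555 and 33254 normalized counts in AS_sal_8, AS_sal_14 and AS_sal_40 and 17938, 24699 and 21604 in control saline libraries. AS_sal_8 and AS_sal_14 lay under all control values and AS_sal_40 above them. mt-Nd3 had the smallest p of all members, at 0.67 (SE 0.30, limma adjusted p = 0.998), and its groups overlapped. limma, edgeR and DESeq2 found 0 nuclear subunits and 1 mitochondrial mRNA at an unadjusted p under 0.05, and 1.23% of all genes were higher at that limma p. The share by edgeR and DESeq2 is not given.

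Set against PS saline mice, AS saline mice had higher values in 80 of 81 nuclear subunits, with a median of 0.31, and 10 of 13 mitochondrial mRNAs, with a median of 0.23, and no gene was called (0.0%). This comparison shares its PS libraries with the one above and its AS libraries with the DEX comparison. Atp5l, which encodes subunit g in the membrane part of the ATP synthase, had 4316 and 4700.3 normalized counts in PS and 4769, 5204 and 11584 in AS saline libraries. AS_sal_40 was far above the other 4, the groups did not overlap, and the difference was 0.55 (SE 0.33, limma adjusted p = 0.728). Uqcr10, a small subunit of complex III, had 3131 and 3398 and 3477, 4053 and 7093, with the same order of libraries, and differed by 0.51 (SE 0.25, limma adjusted p = 0.728). Ndufb4, the epsilon subunit gene Atp5e and Uqcrq were at 0.54, 0.53 and 0.50. In 28 of the 81 nuclear subunits (34.6%) all AS values lay above both PS values, against 11.0% of all genes, and in 29 without AS_sal_40 (15.4% of all genes), 35 without AS_sal_14 (15.8%) and 50 without AS_sal_8 (24.1%). Without AS_sal_40 the nuclear median was 0.07, and the mitochondrial median was 0.02 without PS_sal_62 and 0.42 without PS_sal_68. The astrocyte markers did not overlap here, with 127005 to 133196 in PS and 135195 to 156761 in AS saline libraries, and their part was not tested. At an unadjusted p under 0.05, limma found 0 nuclear subunits and 0 mitochondrial mRNAs, edgeR 5 and 1 and DESeq2 12 and 1, against 3.41%, 3.61% and 4.49% of all genes. The rRNA mt-Rnr1 had the smallest limma p, with 44031 and 55883 in PS and 53367, 79076 and 156321 in AS saline libraries and a difference of 0.81 (SE 0.34, limma adjusted p = 0.728).

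**Figure D4:**
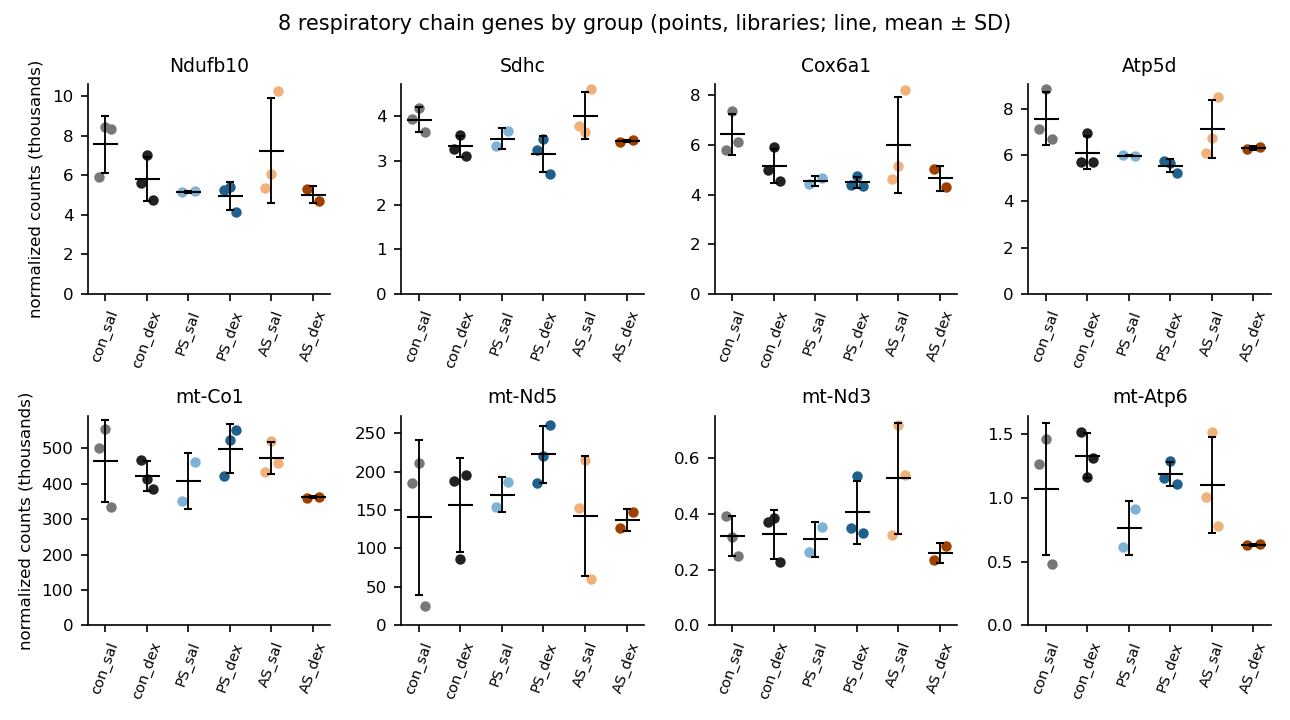
Normalized counts (linear vertical axes) of Ndufb10, Sdhc, Cox6a1, Atp5d, mt-Co1, mt-Nd5, mt-Nd3 and mt-Atp6 in the 6 groups, with 1 point per library and the mean ± SD of each group. The PS saline values of Ndufb10 and Cox6a1 lie under all control saline values, AS_sal_40 lies highest for Ndufb10, Sdhc and Cox6a1, and mt-Atp6 lies higher after DEX in PS and lower in AS mice.

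The third question was whether the response to DEX differed between phenotypes, which the interaction terms tested. No gene was called in the 3 interactions (0.0% in each). Over the nuclear subunits the median difference of responses was 0.15 for PS minus control mice, -0.14 for AS minus control mice and -0.30 for AS minus PS mice, and over the mitochondrial mRNAs 0.23, -0.55 and -0.69. For PS minus control mice the mitochondrial median was -0.11 without PS_sal_62, -0.10 without con_sal_104 and 0.64 without con_sal_114. All 13 mitochondrial mRNAs had the more negative response in AS mice in both comparisons of that phenotype. Against control mice this depended on con_sal_114, without which 8 of the 13 terms were negative and their median was -0.08. That median was -0.84, with 13 negative terms, without AS_sal_40, and -0.33, with 12 negative terms, without con_sal_114 and AS_sal_40 together. Against PS mice the median ran from -0.90 (without PS_sal_68) to -0.48 (without PS_sal_62), with at least 11 negative terms. Of the nuclear medians, that for AS minus control mice was 0.13 and that for AS minus PS mice -0.06 without AS_sal_40. mt-Atp6, with the library values given above, went up in PS and down in AS mice, and the difference of its responses was -1.41 (SE 0.53, limma adjusted p = 0.869). For mt-Nd3 the same term was -1.32 (SE 0.48, limma adjusted p = 0.869). For mt-Co1, of which only a part is copied, it was -0.68 (SE 0.40, limma adjusted p = 0.869), from 351011 and 462178 (PS saline), 421013, 523835 and 550927 (PS DEX), 433454, 521677 and 459340.3 (AS saline) and 359255 and 363303 (AS DEX) normalized counts. The 2 AS DEX values were low, but PS_sal_62 was lower than both. At an unadjusted p under 0.05, limma, edgeR and DESeq2 found 3, 5 and 6 mitochondrial mRNAs for the term of AS and PS, 1, 2 and 2 for that of AS and control and 0, 0 and 1 for that of PS and control. Of all genes 1.82% had a negative term at that limma p for AS and PS and 2.21% for AS and control, and 2.1% a term of either sign for PS and control. These shares are from limma, and the edgeR and DESeq2 counts cannot be set against them. None of the 3 tools found a nuclear subunit at that level in any interaction.

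The standard errors show what size of difference these libraries could resolve. The median SE of a log2 difference between DEX and saline in AS mice was 0.222 for nuclear subunits and 0.461 for mitochondrial mRNAs, against 0.185 for all genes. The fit shares 1 spread per gene over the 6 groups, so these are not the spread of AS mice alone. In control saline, which holds con_sal_114, the SD of the library scores was 0.70 for mitochondrial mRNAs against 0.16 for nuclear subunits. The same SDs were 0.13 against 0.21 in control DEX, 0.30 against 0.06 in PS saline and 0.18 against 0.13 in PS DEX. They were 0.46 against 0.43 in AS saline and 0.05 against 0.04 in AS DEX.

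Some subunits of the chain have several genes. Atp5g1, Atp5g2 and Atp5g3 encode the same mature c subunit, and differed between PS and control saline mice by -0.11, -0.13 and -0.45 on the log2 scale. Atp5g3 had 13294, 15998 and 16505 normalized counts in control and 10778 and 11506 in PS saline libraries. The Atp5g3 groups did not overlap, and none of the 3 genes was called. Cox7a2 and Cox7a2l were at -0.26 and -0.33. Low isoforms known from other tissues or from hypoxia were present at small counts, with Cox4i2 at 14.8 to 90.6, the muscle form Cox7a1 at 31.7 to 87.7 and Ndufa4l2 at 50.7 to 99.1 normalized counts over the 16 libraries. Ndufa4, a complex IV subunit despite its name, had 5112 to 12046. Cox4i2 varied the most of all nuclear subunits, 6.14-fold from lowest to highest library, against a median of 2.05-fold, and its highest value was in AS_sal_40. The core subunits Ndufs1, Sdha and Uqcrfs1 differed after DEX in AS mice by -0.16, -0.02 and -0.15.

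Genes of the pathway outside the symbol rule were called in none of the 10 comparisons. The 11 other subunits and carriers, with Cyc1 (cytochrome c1 of complex III) and Cycs (cytochrome c), had a median of -0.20 in PS against control saline mice, the 39 further assembly factors -0.18, the 16 genes of the citric acid cycle and pyruvate dehydrogenase -0.16 and the 27 genes that express the mitochondrial genome -0.10. The 12 nuclear regulators of respiratory genes went the other way, at 0.21, with 8 higher and 4 lower. Their library scores were 0.02, -0.28 and -0.10 in con_sal_102, con_sal_104 and con_sal_114 and 0.03 and 0.06 in PS_sal_62 and PS_sal_68. con_sal_102 thus lay near the PS values, and con_sal_104 lay lowest. Ppargc1a, the coactivator known for driving mitochondrial biogenesis, differed by 0.33 (SE 0.18, limma adjusted p = 0.571) in that comparison and by 0.23 (SE 0.17, limma adjusted p = 0.591) after DEX in controls. Tfam, the packaging and transcription factor of mitochondrial DNA, and Polrmt, its RNA polymerase, differed after DEX by -0.03 and 0.01 in controls, 0.07 and -0.05 in PS and -0.16 and 0.20 in AS mice, where the limma adjusted p was 0.567 for Tfam and 0.567 for Polrmt. Cycs was at -0.42 (SE 0.18, limma adjusted p = 0.517) after DEX in AS mice. The 8 Ndufaf assembly factors of complex I had medians of -0.11, 0.00 and -0.22 after DEX in control, PS and AS mice.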

How the data were processed

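DRN of 16 male mice, 1 library per mouse, was sequenced after polyA selection. The authors trimmed reads with fastp 0.20.1, aligned them to GRCm38 with HISAT2 2.2.1 and counted them per gene with featureCounts (Subread 2.0). The deposited values are a signal, namely read counts that the authors divided by 1 DESeq2 1.36.0 size factor per library. Whether counting used the strand or reads with several alignments is not given in the sources used here. The deposited tables of fold changes and p-values were not used.

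Groups were taken from the sample labels. limma 3.58.1 (R 4.3.3) was fitted to log2(normalized count + 1) over 16 libraries, with 6 group means and a mean-variance trend. p-values were adjusted by Benjamini and Hochberg over 14504 genes within each of 10 contrasts, and 0.1 was the threshold. They rest on the spread between libraries, with 1 library per mouse. Division by the value of 1 read gave whole numbers (within 0.05) for 100% of values, and these reads went to edgeR 4.0.16 and DESeq2 1.42.0 as alternatives. The limma fit was tried on simulated data for 1 contrast, DEX against saline in control. The simulation held no shifts of whole libraries, and it did not cover edgeR, DESeq2 or the other contrasts. Exon lengths and copies came from GENCODE vM21 (GRCm38) and promoters from RefSeq (GRCm38.p6).

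Members, lists, motifs and tests were chosen with earlier results of these data known, and ribosomal protein kinases were taken out of the ribosomal list after values were seen. Named members were up to 5 called ones with the smallest p, up to 5 with the greatest non-overlapping difference at a mean of at least 100 normalized counts, and a fixed panel, of which Cox6a2 and Cox8b were not analysed here. Members with the smallest uncalled p, and isoforms named for their range, were chosen after their values were seen. Alternatives were other pseudocounts, filters, scalings, library weights, a length correction, other tools and leaving out each library.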

Additional observations from a re-analysis of the deposited data

Results flagged for a closer look

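For 2 members the DEX values lay on opposite sides of the saline values in PS and AS mice, with no overlap in either phenotype, as they did for 285 (2.22%) of the 12863 genes with a mean of at least 100 normalized counts. For mt-Atp6 the log2 difference was 0.66 in PS and -0.74 in AS mice, and the difference of the responses was -1.41 (limma adjusted p = 0.869). For Ndufaf7, an assembly factor of complex I, it was 0.16 in PS and -0.13 in AS mice, and the difference of the responses was -0.29 (limma adjusted p = 0.869). Neither difference was called. No group had 4 libraries or more, so single libraries were not tested against their group.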

How the results depend on the processing

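The counts of called nuclear subunits and mitochondrial mRNAs stayed at 0 in every comparison whichever single library was left out, under the other pseudocounts, filter and scalings, and by edgeR and DESeq2. With limma's library weights, whose estimation stopped short of its convergence tolerance, 6 mitochondrial mRNAs were called after DEX in AS mice (9.67% of all genes) and 1 nuclear subunit (Atp5d) after DEX averaged over phenotypes (9.16%). Without con_sal_114 and AS_sal_40 together, chosen after seeing the data, 2 nuclear subunits and 1 mitochondrial mRNA were called after DEX in controls (5.03% of all genes), and 1 mitochondrial mRNA (mt-Nd4l) each in AS mice (0.503%) and in the average (5.46%). con_dex_116 stayed in this fit, so only saline libraries were left out. The mitochondrial median after DEX in controls was then -0.33, the nuclear median after DEX in AS mice -0.07 and the mitochondrial median of AS against control saline mice -0.12. The cause was not tested.

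With single libraries left out, the mitochondrial median after DEX in controls ranged from -0.33 to 0.49, the nuclear median after DEX in AS mice from -0.49 (without AS_sal_8) to -0.067 (without AS_sal_40), the nuclear median of AS against control saline mice from -0.23 to 0.17 and the mitochondrial one from -0.29 to 0.62. Removing the trend with transcript length gave nuclear medians of -0.24 after DEX in AS mice and -0.16 in PS against control saline mice. No paired analysis was possible because the library numbers in the labels differ between groups. All nuclear subunits had at least 10 reads in every library. The groups held 2 or 3 libraries with 1 library per mouse, so spread between mice and between preparations cannot be told apart. What limited the calls was not tested.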

Other observations

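Reads were also counted on the mitochondrial rRNA and tRNA genes, although polyA selection captures tRNAs poorly. Whether the reads on tRNA genes came from mature tRNAs was not tested, so the values below are not levels of mature tRNA. Of the 16 tRNAs listed, mt-Tc, mt-Tn, mt-Tr, mt-Ts1, mt-Ts2 and mt-Tg had under 10 reads in 14 to 16 of the libraries. mt-Ty had under 10 reads in 7 libraries. mt-Tw, the tryptophan tRNA, was the highest with a mean of 757 normalized counts. Neither rRNA and no tRNA was called in any of the 10 comparisons with all libraries. With library weights mt-Tp and the complex I assembly factor Ndufaf5 were called after DEX in AS mice (9.67% of all genes), and without PS_sal_62 mt-Ty in the average over phenotypes (3.37%). The median log2 difference of the 16 tRNAs was 0.24 after DEX in PS and -0.53 after DEX in AS mice, and that of the 2 rRNAs was 0.34 and -0.68. In AS against PS saline mice the rRNAs had a median of 0.78. AS_sal_40 held the highest value of both rRNAs, and without it the rRNA median was -0.24 after DEX in AS mice and 0.34 in AS against PS saline mice. Without PS_sal_62 the rRNA median after DEX in PS mice was 0.17.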
